A study of Mus musculus with 32 samples.

Results

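Cycling myeloid cells were 527 cells, of 107853 called barcodes in all, chosen by their measured transcripts: they met the marker rule of macrophages and their precursors and had transcripts of at least 4 of 6 cell cycle genes. The data were single-cell RNA sequencing counts from cultures of bone marrow stromal cells in osteogenic medium (BMSC-OBs), made from 77 Diversity Outbred mice, which are genetically unique animals of an outbred stock. Cells of 4 to 5 mice were combined into each of 16 pools, and each pool was sequenced in 2 runs, of which the first was used for the values below. No pool differed from another by a treatment. Every pool was grown from femoral marrow to confluence and then differentiated in medium with ascorbic acid, beta-glycerophosphate and dexamethasone, and the ages of the mice are not given in the sources used here. The cultures were made to yield osteoblasts, no CSF1 is listed among the additions to their medium, and the counts used here were not assigned to single mice.

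Of the 107853 barcodes, 90924 had 400 to 6200 detected genes and at most 10% of transcripts (unique molecular identifiers, UMIs) from mitochondrial genes. The myeloid gate asked for at least 4 Tyrobp UMIs per 10000, at least 1 Csf1r UMI and under 1% of UMIs from the neutrophil granule genes S100a8, S100a9, Camp and Ngp, and 10687 cells passed it. The members had UMIs of at least 4 of Mki67, Top2a, Cdk1, Birc5, Ccna2 and Cenpf. The cells they were set against were the 7015 gated cells with none of the 6, and the 3145 cells with 1 to 3 were left out. These 8 genes and the gate therefore chose the members, and their levels are given as a description with no test.

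Macrophages depend on signalling through the CSF1 receptor, encoded by Csf1r, and carry the adaptor Tyrobp, which couples immune receptors such as Trem2 to intracellular kinases. Most monocytes divide little once they leave the marrow, whereas macrophages of many tissues can renew themselves by division. In the cell cycle, E2F factors switch on the genes of DNA replication in S phase, and a later wave of transcription supplies the proteins of G2 and mitosis. Mki67 encodes a protein of the surface of mitotic chromosomes, Top2a the topoisomerase that untangles replicated DNA, Cdk1 the kinase that drives entry into mitosis, Birc5 (survivin) a subunit of the chromosomal passenger complex, Ccna2 the cyclin of S phase and G2, and Cenpf a protein of the outer kinetochore.

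Promoters of Aspm and of 3 of the genes that chose the members are given here. Aspm had the largest rise among called genes outside the rule and the cycle lists that had at least 50 CPM in members and rose in every pool. The promoters are shown because the genes of this late wave share short promoter letters. Each runs from 250 bases before to 50 bases after the annotated start (RefSeq, GRCm38.p6), written 5' to 3' on the strand of the gene. Capitals mark CCAAT, the box bound by NF-Y, and TTTGAA, the cell cycle homology element, on either strand (read as ATTGG and TTCAAA on the opposite one).
Mki67, chr7:135716330-135716629, minus strand: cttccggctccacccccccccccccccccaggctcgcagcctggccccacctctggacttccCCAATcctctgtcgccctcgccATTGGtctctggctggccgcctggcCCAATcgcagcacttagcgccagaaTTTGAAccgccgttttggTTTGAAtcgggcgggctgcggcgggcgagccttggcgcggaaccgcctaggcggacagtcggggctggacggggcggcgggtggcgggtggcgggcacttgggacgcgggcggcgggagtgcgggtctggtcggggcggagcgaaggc
Top2a, chr11:99024140-99024439, minus strand: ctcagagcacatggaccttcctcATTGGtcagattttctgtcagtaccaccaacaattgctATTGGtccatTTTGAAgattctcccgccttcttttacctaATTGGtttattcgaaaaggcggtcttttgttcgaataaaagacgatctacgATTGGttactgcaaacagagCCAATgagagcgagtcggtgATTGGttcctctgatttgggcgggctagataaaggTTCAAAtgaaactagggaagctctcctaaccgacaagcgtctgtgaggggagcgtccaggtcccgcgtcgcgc
Cdk1, chr10:69352863-69353162, minus strand: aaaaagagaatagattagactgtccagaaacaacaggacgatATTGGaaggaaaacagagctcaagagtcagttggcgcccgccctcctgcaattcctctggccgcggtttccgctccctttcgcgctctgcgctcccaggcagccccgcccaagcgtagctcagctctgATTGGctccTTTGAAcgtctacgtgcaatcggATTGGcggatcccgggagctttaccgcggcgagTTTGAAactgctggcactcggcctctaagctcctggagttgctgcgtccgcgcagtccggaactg
Aspm, chr1:139454523-139454822, plus strand: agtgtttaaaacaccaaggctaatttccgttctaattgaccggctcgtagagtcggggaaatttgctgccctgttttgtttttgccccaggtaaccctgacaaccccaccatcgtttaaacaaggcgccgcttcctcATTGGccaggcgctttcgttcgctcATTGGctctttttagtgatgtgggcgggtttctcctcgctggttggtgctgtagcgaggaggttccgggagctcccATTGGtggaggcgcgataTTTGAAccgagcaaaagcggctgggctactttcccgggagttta
The Top2a window held 6 CCAAT and 2 TTTGAA matches, the Mki67 and Cdk1 windows 3 and 2 each, and the Aspm window 3 and 1. The Cenpf window held 3 matches and that of Birc5 held 0. The matches did not overlap. CCAAT was present in 37.4% and TTTGAA in 17.9% of all 32851 promoter windows. Counted by gene, TTTGAA was found for 57.0% of the 86 genes of a fixed G2 and M phase list that had a window, for 15.8% of the 38 genes of an S phase list and for 20.2% of all 27025 genes. CCAAT was found for 73.3% of the G2 and M phase genes, 65.8% of the S phase genes and 41.1% of all genes. The E2F-type letters TTTCCCGC stood in windows of 21.1% of the S phase genes, 4.65% of the G2 and M phase genes and 1.24% of all genes. A match describes letters in a window, and binding was not measured.

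The members were few in every pool. Their number ran from 5 in pool 4 to 112 in pool 2, with a median of 26, and their share of the gated cells ran from 2.33% in pool 4 to 7.20% in pool 12 (mean 4.74% ± 1.41, SD, n = 16 pools). The exact 95% binomial intervals of these extremes, 0.759 to 5.34% and 5.09 to 9.83%, overlapped, and most pools could not be told apart by their intervals, which cover counting error only. The gate itself held 3.40 to 28.5% of the cells of a pool. Summed UMIs per pool ran from 53990642 to 100777353.

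**Figure D1:**
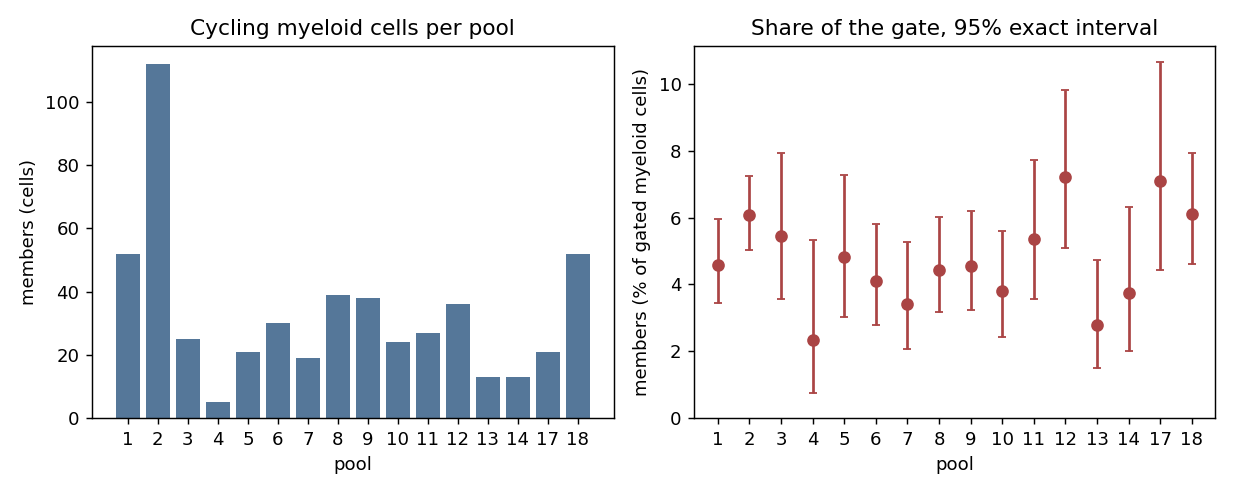
Cycling myeloid cells in each of the 16 pools (x axis). Left, number of members (bars); right, members as a percentage of gated myeloid cells (points) with exact 95% binomial intervals (lines). Pool 2 held the most members (112) and pool 4 the fewest (5), while the shares lay between 2.33 and 7.20%.

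Members held more transcripts than the cells they were compared with, and detecting 4 of 6 genes is easier in a cell with more transcripts. The median UMI count per pool was 8482 to 19029 in members and 2895 to 7550 in cells with none of the 6. Mitochondrial shares were alike, at 3.12 to 4.92% and 3.28 to 5.12%. A doublet caller (Scrublet) marked 74 members (14.0%) and 314 (4.48%) of the cells with none of the 6, and UMIs of both Xist and Y-linked genes, at least 2 of each, were found in 7 members (1.33%) and 23 (0.328%) of the others. For these reasons the comparison of genes between members and cells with none of the 6 is also given against UMI-matched cells of the same pool, and after leaving out called doublets, cells with high collagen shares and C1q-low cells together. Of the members' barcodes, 15 also occurred in another pool, and in 0 cases was the other cell a member.

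At the threshold the members graded into the other cells. The 172 gated cells with 3 of the 6 genes had a median of 9793 UMIs and drew a median of 0.819% of their UMIs from the G2 and M phase list, against 10944 UMIs and 1.14% in the 117 members with exactly 4. The 249 members with all 6 had 14536 UMIs and 2.13%. In the second run, which resequenced the same libraries and is no independent sample, 524 of the 527 barcodes were found, and 431 of these (82.3%) again passed the gate with at least 4 of the genes. None of the 6959 cells with none of the 6 that were found again did so.

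The genes of the rule were present at these levels in the summed counts of 12 pools with at least 20 members (477 members in all), in UMIs per 1000000 summed UMIs of the class (counts per 1000000, CPM). Mki67 ran from 265 to 669 CPM (median 522) and Top2a from 312 to 666 (median 537). Cdk1, Birc5, Ccna2 and Cenpf had medians of 237, 382, 178 and 191 CPM. Tyrobp lay at 877 to 1606 CPM (median 1083) in members and 1165 to 1871 (median 1601) in the cells with none of the 6. Csf1r lay at 269 to 534 (median 345) and 443 to 769 CPM (median 566). The gate asks for a Csf1r UMI and a Tyrobp share in every cell, which sets a higher floor in CPM of Csf1r for cells with fewer UMIs, so no difference is read from these 2 genes.

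Most members carried transcripts of both S phase and mitosis. The S phase list took a median of 0.308% of a member's UMIs (10th to 90th percentile 0.104 to 0.760%), against 0.0509% in cells with none of the 6. The G2 and M phase list took 1.78% (0.823 to 2.69%) against 0.306%. With 9 S phase genes and 8 genes of mitosis taken as sets, 478 members had UMIs of both sets, 28 of the S phase set alone, 19 of the mitosis set alone and 2 of neither. Of the members, 52 had at least 3 S phase genes with at most 1 mitosis gene, 59 had the opposite, and 317 had at least 3 of each. Since the rule asks for 4 genes that peak late in the cycle, cells early in S phase were less likely to be chosen.

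**Figure D2:**
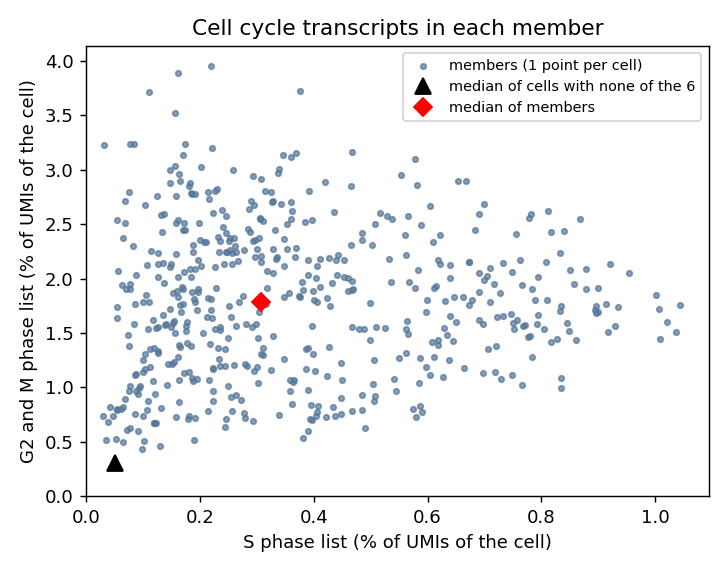
Share of each member's UMIs taken by the S phase list (x axis, %) and by the G2 and M phase list (y axis, %), 1 point per cell, 527 cells. The diamond marks the median of members (0.308%, 1.78%) and the triangle that of gated cells with none of the 6 (0.0509%, 0.306%), and members spread along both axes without a gap.

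Single S phase genes showed the same breadth. Pclaf, which encodes a PCNA-binding factor, was detected in 85.8% of members and 2.98% of the cells with none of the 6. Mcm3, a subunit of the replicative helicase, was detected in 67.4 and 10.8%, and Ccne1, the cyclin of the entry into S phase, in 19.9 and 0.941%. Among mitosis genes, Ube2c, the ubiquitin-conjugating enzyme of the anaphase-promoting complex, was found in 80.5 and 5.39%, Ccnb1 (cyclin B1) in 63.6 and 1.61%, and Plk1 (polo-like kinase) in 43.6 and 0.542%. The most abundant S phase list genes in members, by mean CPM, were Pclaf (366 against 5.49 CPM), Rrm1 (184 against 19.9), Nasp (162 against 61.7), Pcna (146 against 62.9), Atad2 (132 against 23.2) and Rrm2 (125 against 3.00). Rrm1 and Rrm2 form ribonucleotide reductase, which makes deoxynucleotides. Of the G2 and M phase list the histone gene H2afz led with 1946 against 560 CPM, followed by the tubulin genes Tubb5 (1499 against 213) and Tuba1b (1077 against 130). These shares and levels follow from the choice of cycling cells and carry no test.

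Most macrophage markers that the rule did not use were each detected in most members, and precursor markers in few. Without thinning, at least 10 C1q UMIs per 10000 (C1qa, C1qb and C1qc, the chains of the complement protein C1q, which macrophages make) were found in 391 members, and under 2 per 10000 in 87. Cd68, a lysosomal protein of macrophages, was detected in 94.9% of members and 10.1% of stromal cells with none of the 6. These stromal cells had by definition no Tyrobp or Csf1r UMI. Trem2 was detected in 89.4 and 7.11%, Adgre1 (F4/80) in 78.2 and 2.62% and Mrc1 (the mannose receptor) in 69.3 and 5.43%. All 14 markers of a macrophage list were found in over 10% of members, and the lowest shares were those of Fcgr1 (32.3%) and Mertk (30.4%, against 14.6% of stromal cells). Of 12 progenitor markers only 2 were, and these were Igfbp4 and Sox4, which stromal cells also carry (61.3 and 51.7%). Of 8 monocyte markers 5 were found in over 10% of members, among them F13a1 (82.9%, against 17.4% of stromal cells) and Cx3cr1 (27.1 and 1.38%). Ms4a4c had the lowest share of the 8 (4.74%). Of 8 T and NK cell markers 1 was found in over 10% of members, which was Il7r (49.3%). For other lineages, all 7 erythroid and 4 of 6 B cell markers had no UMI in any member, whereas 11 of 14 stromal and 4 of 10 osteoclast markers were found in over 10% of members. Col1a1 and Ibsp (bone sialoprotein) were each detected in 99.6% of members, and Acp5, the acid phosphatase of osteoclasts, in 71.0% against 11.4% of stromal cells.

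Thinned to 3000 UMIs a cell, so that depth is equal, 74.4% of 520 members had at least 3 C1q UMIs (exact 95% interval 70.4 to 78.1%). The share was 78.5% (77.3 to 79.5%) in 5462 cells with none of the 6 and 0.545% in 43118 stromal cells. Stromal cells were chosen to have no Tyrobp or Csf1r UMI, which can leave out droplets with stray myeloid transcripts. Their shares may therefore understate the background. In stromal cells the resident set below was at 0.0928%, the lipid-associated set at 11.4%, the monocyte set at 1.07%, the osteoclast set at 0.213% and the primary granule set at 0.0904%. The shallower cells, among 527 members and 7015 others, could not be used. A set of resident macrophage receptors (Mrc1, Stab1, Folr2, Mertk) passed the same limit in 39.2 and 48.2%, and a lipid-associated set (Gpnmb, Trem2, Lpl) in 66.5 and 79.6%. A monocyte set (Ly6c2, Ccr2, Plac8, Chil3), which leaves out F13a1 and Cx3cr1, passed it in 10.4% (7.90 to 13.3%) and 7.96% (7.26 to 8.71%). An osteoclast set (Ocstamp, Dcstamp, Atp6v0d2, Mmp9, Calcr) passed it in 3.85% (2.36 to 5.88%) and 9.52% (8.75 to 10.3%). Myeloid cells with a sizeable count of primary granule transcripts (Mpo, Elane, Prtn3, Ctsg), which mark granulocyte and monocyte precursors, made up 12 members (2.31%, 1.20 to 4.00%) and 14 cells (0.256%) with none of the 6. Of 520 members 0 reached 3 UMIs of Cd34, Kit and Flt3, which allows a share of up to 0.577% by the limit of 3 cells and 0.707% by the exact interval. These limits are for reaching 3 UMIs at this depth, and without thinning 35 of 527 members had a UMI of these genes. These shares pool the cells of all pools, their intervals cover counting error only, and the classes were not compared here within pools, so no difference is read from them.

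The precursor-like members were spread thinly. Without thinning, 16 members in 8 pools had at least 3 primary granule UMIs, from 4 to 363 with a median of 19.5. Of these 16, 14 were C1q-low, 6 had a UMI of Cd34, Kit or Flt3 (35 of all 527 members had one), and 1 was called a doublet. Of the 52 members of pool 18, 22 were C1q-low, 26 were C1q-high and 23 had at least 3 UMIs of the monocyte set, and in pool 8 the last were 17 of 39. The C1q-high share of members was as high as 85.2% (pool 11) among the 12 pools (mean 72.3% ± 11.1, SD). Among cells with none of the 6 it ran from 63.4 (pools 1 and 18) to 88.5% (pool 8) over the same pools.

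Members were then compared with gated cells with none of the 6 in the summed counts of the 12 pools, pool by pool (quasi-likelihood test of edgeR, blocked by pool, with Benjamini-Hochberg adjustment over all genes tested). Most genes of nucleotide synthesis rose, and most genes of lysosomes, lipid handling and immediate early response fell. Most markers of mature macrophages fell too, but only 4 of 14 did so against cells matched in UMI count, and of the 11 other than the C1q genes 5 fell in C1q-high, UMI-matched cells without called doublets or high collagen shares (the C1q-high restricted cells). Of 8255 genes tested, 1750 (21.2%) were higher and 1720 (20.8%) lower in members at an adjusted p of 0.05, which is 42% in either direction. Against UMI-matched cells the counts were 825 (15.9%) and 956 (18.4%) of 5190 genes, or 34.3% in either direction. In the C1q-high restricted cells they were 476 (13.3%) and 478 (13.3%) of 3591 genes in 9 pools. The background was thus high in either direction, and lists are read against it. The summed counts of a class alone cannot tell fewer cells with a transcript from less of it per cell. They are read as shares of UMIs, and members held a mean of 14989 UMIs per cell against 6214. A gene said to fall thus took a lower share of UMIs, and need not have had fewer UMIs per cell. C1qa, for instance, had 9840 UMIs in the 527 members of all pools and 83804 in the 7015 cells with none of the 6. It was detected in 84.3 and 83.9% of them, at unequal depth. The p-values measure how the difference between the classes varied from pool to pool.

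Genes of the rule and of the fixed S phase and G2 and M phase lists were left out of the following. Many of the largest rises outside them were in genes that work in division or DNA replication, read gene by gene and not from a fixed list. Such genes stand close to the rule, and Hist1h1b is also one of the 9 S phase genes used above. Aspm, which organises the poles of the mitotic spindle, lay at 22.8 to 89.8 CPM in members (median 59.1) and at 0 to 1.63 (median 0.306) in cells with none of the 6. The groups did not overlap, and the fitted log2 fold change was 6.52. Hist1h1b, a replication-dependent linker histone, had a mean of 138 CPM in members and 1.79 in the others (6.25 on the log2 scale). Iqgap3, a scaffold protein of dividing cells, and the long noncoding RNA Lockd had log2 fold changes of 5.05 and 5.31. These 4 genes were near 0 in the cells with none of the 6 and passed the filter on low counts through the members, so their values are a description with no test. The centromere gene Cenpq (3.98), the centriole kinase gene Plk4 (3.60) and Spdl1 (2.88), whose protein links dynein to kinetochores, rose too.

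Among the named rises were also Ezh2, Dbf4, Hist1h1e and Dnajc9, genes of chromatin and replication, for which no list was tested. These genes, too, stand close to the rule, and their values are given as a description. Ezh2, the methyltransferase of Polycomb repressive complex 2, lay at 53.9 to 185 CPM (median 123) in members and at 7.41 to 19.9 (median 13.8) in the others. Its log2 fold change was 3.13 (SE 0.13). Dbf4, the activating subunit of the Cdc7 kinase that fires replication origins, rose by 2.67 (SE 0.12). The linker histone gene Hist1h1e rose by 2.71 and the histone chaperone gene Dnajc9 by 2.46. For Hist1h1e alone of these 11 genes did the ranges of the groups overlap. The share of all genes tested whose ranges did not overlap is not given here, so overlap is a description here and below. In all 12 pools each of the 11 genes was higher in members, which the naming rule asked for and which is no further support. The 7 genes from Cenpq to Dnajc9 were higher against UMI-matched cells too, with log2 values from 1.84 (Dnajc9) to 3.39 (Cenpq). A gene can pass the filter on low counts in that comparison through the members alone. These values are therefore also a description with no test.

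Cdkn2c and Cdkn2d, which both encode inhibitors of the cyclin D kinases, rose as well. These and the other cell cycle regulators below stand close to the rule, so their p-values add no independent support for cycling. Cdkn2c (chr4:109660876-109667189, minus strand, GRCm38) encodes the inhibitor p18INK4c of CDK4 and CDK6. It lay at 38.9 to 133 CPM (median 80.1) in members and 6.33 to 15.5 (median 10.2) in cells with none of the 6, with no overlap between groups. Its log2 fold change was 2.92 (SE 0.15, adjusted p = 7.02e-13), and it was 2.66 against UMI-matched cells and 3.08 in the C1q-high restricted cells. Cdkn2d (chr9:21288410-21291407, minus strand), which encodes p19INK4d, lay at 50.2 to 121 CPM (median 68.3) against 8.40 to 20.8 (median 14.2), a log2 change of 2.33 (SE 0.14, adjusted p = 1.13e-11). Of 24 regulators of G1 and S phase that were tested, 9 rose, 3 fell and 12 did not pass (median 0.30, against -0.01 over all genes), and against UMI-matched cells 4 of 14 rose and 3 fell (median 0.14). The pocket protein gene Rbl1 rose by 2.62 and E2f2, an activating E2F, by 2.54. Cdk4 itself rose by 0.83 (128 against 72.4 CPM), and Ccnd3 (cyclin D3) by 0.48. These last 2 were chosen after their values were seen, and Ccnd3 did not pass against UMI-matched cells (0.21, adjusted p = 0.338).

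Nucleotide synthesis was the list that rose most broadly. Of its 23 genes tested 19 rose and 0 fell (median log2 change 0.88), 11 of 14 rose against UMI-matched cells, and 8 of 8 in the C1q-high restricted cells. Fewer of its genes passed the filter on low counts in the restricted comparisons, and a gene can pass it through the members alone, where it is high. Impdh2, the rate-limiting enzyme of guanine nucleotide synthesis, lay at 98.8 to 200.3 CPM (median 138) in members and at 46.1 to 71.3 (median 55.0) in the others, and the groups did not overlap. The change was 1.34 on the log2 scale (SE 0.09, adjusted p = 8.49e-11). Dctpp1, which degrades surplus dCTP, rose by 1.37 and Mthfd2, a mitochondrial enzyme of one-carbon metabolism, by 1.00. Ppia, which rose by 0.71, encodes a peptidyl-prolyl isomerase and no enzyme of this pathway.

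Ribosome biogenesis genes rose by less, and those of oxidative phosphorylation rose in the full comparison. Of 24 ribosome biogenesis genes 13 rose and 0 fell (median 0.35), and 7 of 18 rose against UMI-matched cells. Dkc1, the pseudouridine synthase, rose by 1.17, the box C/D protein gene Nop58 by 0.81, Nhp2 by 0.80 and Npm1 (nucleophosmin) by 0.71. Of 32 genes of oxidative phosphorylation 22 rose and 0 fell (median 0.27), but 3 rose and 2 fell against UMI-matched cells, where 15.9% of all genes rose, and 2 rose and 1 fell in the C1q-high restricted cells, where 13.3% did. Cycs (cytochrome c) rose by 0.93 and Cox7a2, a subunit of cytochrome c oxidase, by 0.44, and both also passed against UMI-matched cells (0.60 and 0.20). In glycolysis 4 of 16 genes rose and 2 fell, where 21.2 and 20.8% of all genes did. Against UMI-matched cells 0 rose and 5 fell, where 15.9 and 18.4% of all genes did. Gapdh rose by 0.46 and Pkm by 0.30, while Hk2 (hexokinase) fell by 0.64 and Pfkfb3, which makes an activator of phosphofructokinase, fell by 1.07. Against UMI-matched cells neither Gapdh nor Pkm passed (adjusted p = 0.167 and 0.258), nor did Gapdh without the block (0.0676), and Hk2 and Pfkfb3 did (-0.59 and -0.87).

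Among the transcription factors of myeloid identity 0 of 21 tested rose and 17 fell (median -0.52). Cebpa, a factor of the myeloid lineage, lay at 20.5 to 121 CPM (median 72.3) in members and at 111 to 184 (median 156) in cells with none of the 6, and was lower in 12 of 12 pools with ranges that overlapped. It fell by 1.00 on the log2 scale (SE 0.10, adjusted p = 1.02e-07); the log2 fold change was -0.68 against UMI-matched cells and -0.73 in the C1q-high restricted cells. Bhlhe41, which is known from alveolar macrophages, fell by 0.90, and Irf8, a factor of monocyte and dendritic cell development, by 0.85. All these 3 passed in either restricted comparison. Against UMI-matched cells 1 of 20 factors rose and 9 fell.

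Markers of mature macrophages fell in part. Of 14 markers 11 fell and 0 rose (median -0.62), and against UMI-matched cells 4 fell (median -0.25). C1qa (chr4:136895917-136898803, beside C1qc and C1qb on the same strand) lay at 731 to 1770 CPM (median 1158) against 1396 to 2519 (median 1935), and was lower in 11 of 12 pools, with overlapping ranges. The log2 change was -0.76 (SE 0.12, adjusted p = 3.04e-05). C1qb and C1qc changed by -0.70 and -0.74. None of the 3 passed against UMI-matched cells (-0.25, -0.21 and -0.25, adjusted p = 0.152, 0.251 and 0.149 for C1qa, C1qb and C1qc). In the C1q-high restricted cells, which were chosen by these genes, they carry no test. Of 8 complement genes 1 rose and 6 fell. Of 7 tested against UMI-matched cells 1 rose and 1 fell, where 15.9 and 18.4% of all genes did. C3ar1, the receptor of the C3a fragment, fell by 1.10, and Mertk, a receptor for dying cells, by 1.22. Ms4a7, a membrane protein of macrophages, fell by 1.73 (73.2 against 255 CPM on average).

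Lysosome and lipid genes fell together. Of 27 lysosome genes tested 23 fell and 0 rose (median -0.54), with 17 lower and 1 higher of 26 against UMI-matched cells. Ctsb, the cathepsin with the highest level, lay at 1895 to 5045 CPM (median 3047) in members and at 4238 to 7594 (median 5485) in the others, and was lower in 12 of 12 pools. Its log2 fold change was -0.92 (SE 0.09, adjusted p = 1.81e-08). Ctss fell by 0.93, the tetraspanin gene Cd63 by 0.65 and Gpnmb, a glycoprotein of lysosomes, by 1.18. Of 16 lipid genes 11 fell and 1 rose (median -0.67), and 13 of 15 fell against UMI-matched cells.

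Apoe (chr7:19696109-19699188, minus strand), the lipoprotein through which macrophages export cholesterol, was the most abundant of them. It lay at 1093 to 3359 CPM (median 1752) in members and at 3853 to 11292 (median 5924) in cells with none of the 6, with no overlap. It changed by -1.60 on the log2 scale (SE 0.15, adjusted p = 2.90e-08), and -0.75 against UMI-matched cells. Abca1, the cholesterol exporter, fell by 1.25, Plin2, the coat protein of lipid droplets, by 0.96, and the fatty acid binding protein gene Fabp5 by 0.84. Selenop, the secreted carrier of selenium, fell by 1.75 (405 against 1328 CPM on average).

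Immediate early genes, which respond within minutes to stimuli and to handling of cells, fell almost without exception. Of 15 tested 14 fell and 0 rose (median -0.66), 14 of 15 were also lower against UMI-matched cells, and 9 of 13 fell in the C1q-high restricted cells. Dusp1, a phosphatase of MAP kinases, lay at 130 to 292 CPM (median 180) against 333 to 617 (median 432) with no overlap, a log2 change of -1.18 (SE 0.09, adjusted p = 1.52e-09). Zfp36, which destabilises cytokine mRNAs, fell by 1.09, Jund by 0.74 and Junb by 0.64. Single cells were released with collagenase and trypsin in every pool, and the part of this handling in these values was not tested.

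Inflammatory genes fell in the full comparison, and fewer passed in either restricted one. Of 22 tested 16 fell and 2 rose (median -0.54), and against UMI-matched cells 4 of 19 fell and 2 rose (median -0.16), near the 18.4% of all genes that fell there, while in the C1q-high restricted cells 8 of 19 fell and 0 rose (median -0.33). Il10, the anti-inflammatory cytokine, lay at 0 to 85.5 CPM (median 19.0) in members and at 92.7 to 178 (median 131) in the others, with no overlap. Its log2 fold change of -2.18 (SE 0.23, adjusted p = 1.02e-07) was -1.06 against UMI-matched cells. The neutrophil chemokine Cxcl1 fell by 1.04, Tnfaip3, an inhibitor of NF-kappa B signalling, by 0.91, and Cxcl16 by 0.83. Of these Cxcl16 did not pass against UMI-matched cells (-0.20, adjusted p = 0.297). Sgk1, a kinase induced by glucocorticoids, lay at 209 to 663 CPM (median 323) against 821 to 1190 (median 991), a log2 change of -1.57 (SE 0.10, adjusted p = 7.86e-11), and the medium held dexamethasone in every pool.

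The remaining genes with the largest falls had varied roles. Fbxo32, a muscle-type ubiquitin ligase subunit controlled by FoxO factors, fell by 1.89 and Anpep (CD13, an aminopeptidase) by 1.79. Hal, the enzyme that breaks down histidine, fell by 1.76, and Zdhhc14, a palmitoyltransferase, by 1.58. Ahnak2 fell by 1.46 and Rgs1, a regulator of G protein signalling, by 1.44. Trib1, a pseudokinase needed by tissue macrophages, fell from a mean of 122 to 45.5 CPM. All were lower in 12 of 12 pools, which the naming rule asked for, and all that could be tested against UMI-matched cells passed there. Zdhhc14 could not be tested there.

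MHC class II, monocyte and interferon genes depended on the pools. Of 7 MHC class II genes tested 5 fell and 0 rose, but only 1 could be tested against UMI-matched cells, where it did not pass (0.33). H2-Aa ran from 0 to 888 CPM in members (median 3.45) and from 1.24 to 1502 in the others (median 184), so that pools differed far more than the classes did. Its log2 fold change was -1.45 (SE 0.31, adjusted p = 0.000823), and those of H2-Ab1 and Cd74 were -1.23 and -1.34. Without the replicate block none of the 3 passed (adjusted p = 0.494, 0.504 and 0.561 for H2-Aa, H2-Ab1 and Cd74). Of 6 monocyte markers 3 rose and 1 fell. Against UMI-matched cells 1 of 4 rose and 0 fell, and among C1q-high cells without matching 0 of 3 rose and 1 fell. Ly6c2, which shares sequence with Ly6c1, rose by 1.52 (SE 0.32, adjusted p = 0.000995) and was higher in 7 of 12 pools, Ccr2 by 0.89 in 9 pools and Plac8 by 1.29 in 8. None of these 3 passed without the replicate block (adjusted p = 0.299, 0.417 and 0.362 for Ly6c2, Ccr2 and Plac8), and without pool 5, 6, 9 or 11 Plac8 did not pass (1.02 to 1.18, adjusted p = 0.0506 to 0.0674). Of 13 interferon genes 3 rose and 3 fell, near the 21.2 and 20.8% of all genes, and without the block 1 rose and 1 fell. Cxcl10 rose by 1.53 in 11 of 12 pools and Ly6e by 0.54 in 10, and Ly6e did not pass without the block (adjusted p = 0.356).

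Receptor signalling, osteoclast and stromal genes closed the fixed lists. Of 14 genes of CSF signalling 2 rose and 7 fell. The shared receptor chain Csf2rb fell by 0.86 (not without the block, adjusted p = 0.115), and Cbl, the ligase that removes activated CSF1 receptor, by 0.74. Of 17 scavenger and phagocytic receptors 9 fell and 0 rose, but 4 fell without the block and 4 of 13 against UMI-matched cells. Of 5 osteoclast genes 2 fell, Atp6v0d2, a subunit of the vacuolar proton pump that osteoclasts use, by 1.56. Of 17 cholesterol synthesis genes 4 rose and 2 fell, and of 14 p53 targets 2 rose and 3 fell, against 21.2 and 20.8% of all genes. Against UMI-matched cells 0 of 6 passed in the first list, and in the second 1 of 10 rose and 4 fell. Bbc3 (PUMA), a p53 target, rose by 0.71 in 12 of 12 pools. Both progenitor markers tested did not pass, and with no filter on low counts 5 of 12 rose and 0 fell, where 1479 of all 18971 genes rose. Lists of other lineages are not given for that fit, so no rise particular to progenitors is read.

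Stromal transcripts were present in both classes. The 14 stromal markers summed to a median of 12018 CPM in members and 12428 in cells with none of the 6. None of the 11 tested passed (median -0.10). Col1a1, the main collagen of osteoblasts, lay at 514 to 6407 CPM (median 2075) against 1308 to 6495 (median 2836), a log2 change of -0.53 (SE 0.23, adjusted p = 0.0647). Against UMI-matched cells 8 of the 11 were lower in members and Col1a1 changed by -1.34, and in the restricted cells 1 of 7 was lower and Col1a1 changed by 0.08. The share of the falls above that goes with this difference was not tested. Lysosome (19 of 26), lipid (11 of 14) and immediate early genes (9 of 13) were lower in those restricted cells as well.

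**Figure D3:**
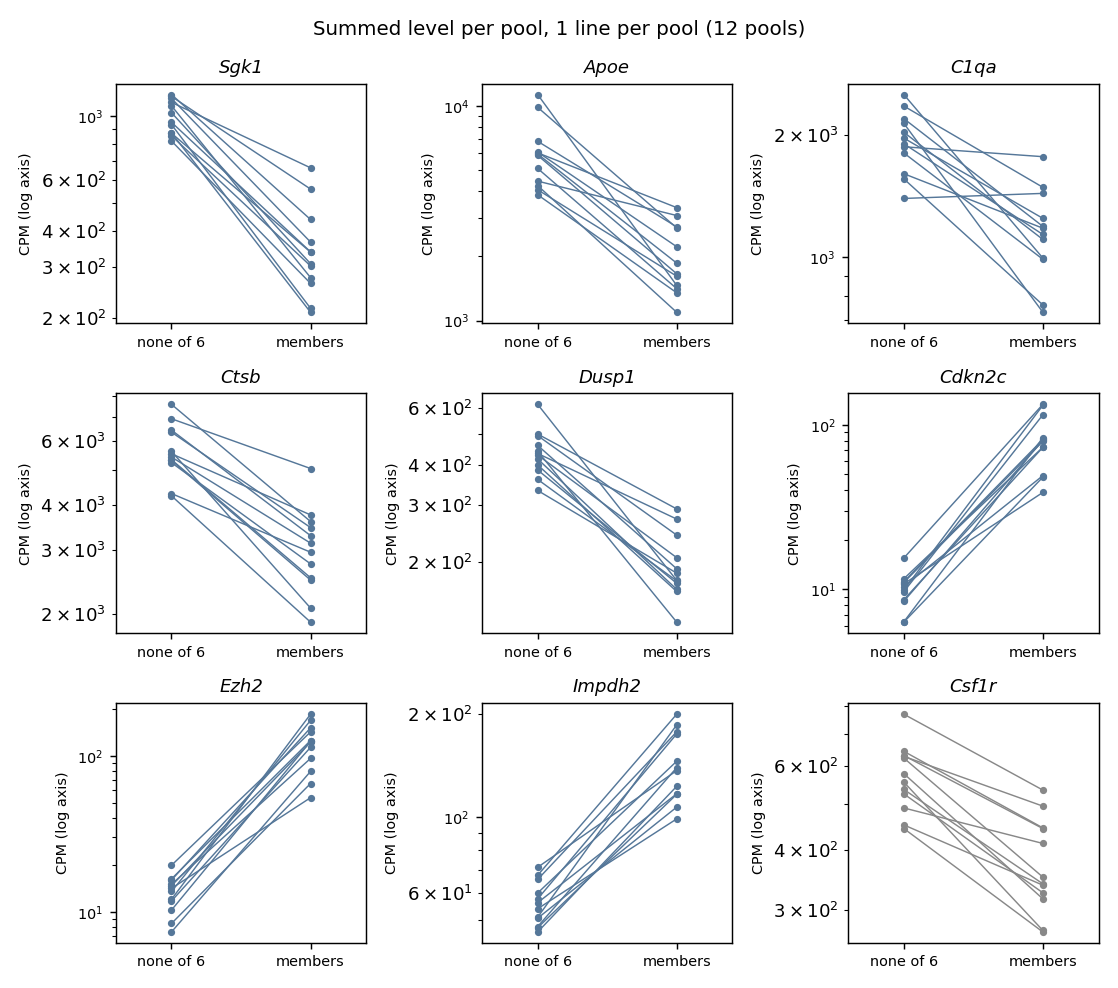
Summed level (CPM, log axis) of 9 genes in cells with none of the 6 (left) and in members (right) of each pool, 1 line per pool, 12 pools. Sgk1, Apoe, Dusp1, Cdkn2c, Ezh2 and Impdh2 did not overlap between classes, C1qa and Ctsb did, and Csf1r (grey) belongs to the rule and is shown without a test. The genes drawn were picked, and the share of all genes without overlap is not given, so overlap is a description.

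**Figure D4:**
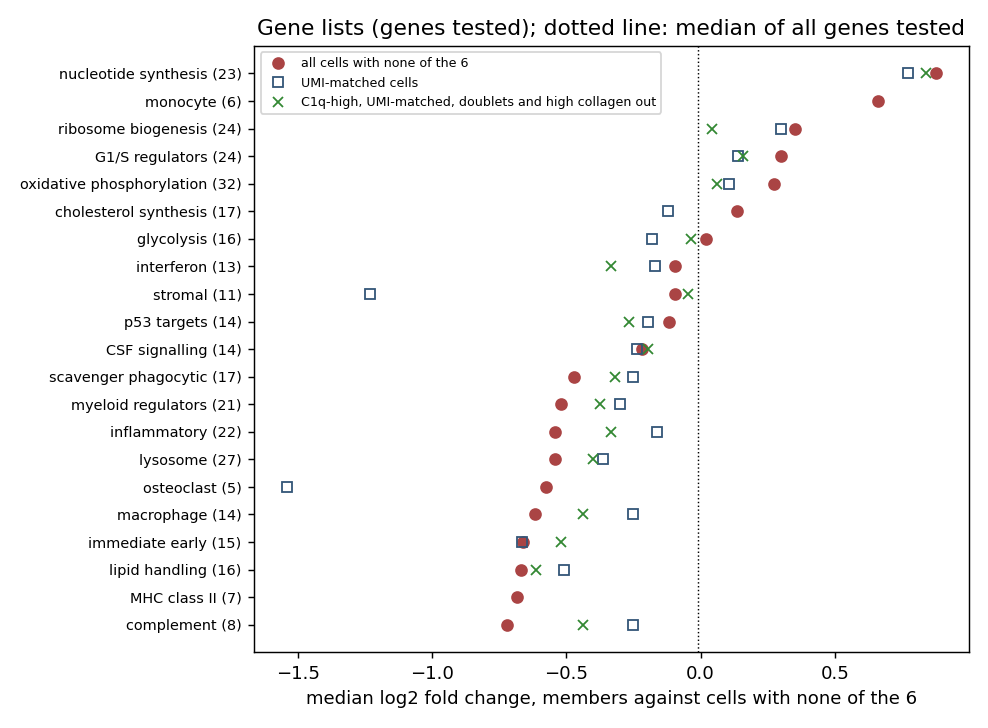
Median log2 fold change of each gene list other than the cycle lists (y axis, number of genes tested in brackets) in members against all cells with none of the 6 (circles), UMI-matched cells (squares) and C1q-high, UMI-matched cells without called doublets or high collagen shares (crosses). Lists with under 5 genes tested in a comparison are left out, and the dotted line is the median of all genes (-0.01). Of the lists drawn, nucleotide synthesis (0.88) was the highest, and the stromal and osteoclast lists moved most with the choice of cells. The macrophage and complement lists hold the C1q genes, which chose the cells marked by crosses.

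The question of whether C1q-high and C1q-low members differed from their own non-cycling cells in the same way was put to 8 pools with at least 5 cells in each of the 4 classes. Of 5707 genes tested 0 passed (0%) with edgeR, 456 had an unadjusted p under 0.05, of which 226 were higher in C1q-high cells, and DESeq2 called 9. The lowest adjusted p was 0.0856. It was shared by 9 genes, of which 5 had positive interactions, where cycling lowered a gene less or raised it more in C1q-high cells, and 4 negative ones, and 3 of them are given as chosen after their values were seen. One was Ccrl2, an atypical chemokine receptor, whose mean went from 585 to 375 CPM with cycling in C1q-high cells and from 456 to 115 in C1q-low cells (interaction 1.28, SE 0.25). Ctsb went from 6313 to 3963 CPM and from 4074 to 1223 (interaction 0.97, SE 0.21). Ccrl2 and Ctsb passed with DESeq2 (adjusted p = 0.00652 and 0.0218) and, with edgeR, without called doublets (0.00719 for each), and neither passed against UMI-matched cells (0.418 and 0.391) or in run 2 (0.171 and 0.640). Of the negative ones Fxyd2, a regulatory subunit of the sodium pump, went from 71.1 to 33.3 CPM in C1q-high and from 59.8 to 237 in C1q-low cells (interaction -3.77, SE 0.77), and it did not pass with DESeq2 (0.0558). A difference that did not pass in classes as small as 5 cells does not show that the 2 kinds of cell cycled alike.

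Whether cycling went with the same genes in myeloid and stromal cells was asked with the same 6 genes applied to stromal cells, which gave 2630 cycling stromal cells. The interaction was positive where cycling raised a gene more, or lowered it less, in myeloid cells. Of 11390 genes tested in 12 pools 1188 (10.4%) were higher and 488 (4.28%) lower, so that 70.9% of calls were higher, with a median over all genes of 0.09. Centred on that median, a step chosen after the data were seen, 770 (6.76%) were higher and 849 (7.45%) lower (47.6% higher), and 1258 genes were called by both with the same sign, which was 75.1% of the first and 77.7% of the second. DESeq2 gave 978 (8.59%) and 663 (5.82%). Without the replicate block the counts were 482 and 217, and without pool 6 they were 463 and 1731 (750 and 879 when centred). The split therefore moved with the scaling, and single genes are given with both values.

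For the 5 genes with the lowest values, the level in non-cycling cells was higher in myeloid than in stromal cells. The same 6 genes chose the classes of both lineages, and non-cycling cells had medians of 4973 (myeloid) and 9720 UMIs (stromal). What part this choice has in the values was not tested. Fam111a, a protease that acts at stalled replication forks, had a mean of 149 CPM in cycling and 69.1 in non-cycling myeloid cells, and 80.4 and 4.28 in stromal cells. Its interaction was -3.13 (SE 0.15, adjusted p = 4.91e-19, -3.22 when centred). Gas2l3, a cytoskeletal linker of dividing cells, had 198 and 205 CPM in myeloid cells, where it was the only one of 100 G2 and M phase genes that was lower in members, and 53.9 and 9.11 in stromal cells (-2.51, SE 0.17, centred -2.60). Cenpa, the histone of centromeres, had 247 and 16.3 against 228 and 3.49 CPM (-2.03, centred -2.12), and the condensin gene Ncapg2 66.5 and 18.9 against 59.9 and 4.45 (-1.77, centred -1.86). Fabp5 moved in opposite directions, from 1347 to 768 CPM with cycling in myeloid cells and from 375 to 830 in stromal cells (-1.89, SE 0.18, adjusted p = 9.51e-10, centred -1.98).

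The 5 genes with the highest values were lower in cycling than in non-cycling stromal cells, and for 4 of them, all but Bglap2, the means in both myeloid classes were low, so that these interactions rest on the change in stromal cells. Phex, a peptidase of osteocytes and osteoblasts, had 27.8 CPM in cycling and 163 in non-cycling stromal cells against 15.8 and 21.1 in myeloid cells (2.45, SE 0.43, centred 2.36). Bglap2, an osteocalcin gene whose reads may be split with its near-identical copies, had 696 and 2486 against 328 and 169 CPM (2.46, centred 2.37), and pool values in cycling myeloid cells ran from 8.23 to 2085. Rarres2 (chemerin, 2.86), Sost (sclerostin, 3.33) and Cfd (adipsin, 4.00) had means of at most 25.8 CPM in either myeloid class. Rarres2 and Sost passed neither against UMI-matched cells (1.05 and 1.52, adjusted p = 0.252 and 0.174) nor without called doublets (1.76 and 0.77, adjusted p = 0.130 and 0.707), and Cfd did not pass without pool 1 (3.93, adjusted p = 0.0798) or without the replicate block (3.62, adjusted p = 0.263). Of 32 genes of oxidative phosphorylation 13 were higher and 0 lower (10 when centred). These counts were not stable, with 5 higher against UMI-matched cells, 3 without the replicate block, and 2 higher and 4 lower in run 2. Of 28 lysosome genes 0 passed (1 lower when centred), but 11 of 27 were lower in run 2 and 2 of 27 higher against UMI-matched cells. Of all 11359 genes tested in run 2, 491 were higher and 2304 lower, and 430 of 10508 were higher against UMI-matched cells.

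Whether some kinds of gated cell were in cycle more often than others was asked at an equal depth of 3000 UMIs a cell, at which 2.86% ± 1.38 (SD, n = 16 pools) of gated cells and 1.94% ± 1.21 of stromal cells had at least 4 of the 6 genes. The difference of 0.92 percentage points was positive in 12 of 16 pools (exact two-sided sign-flip permutation test, p = 0.0756). At this depth 1904 gated and 14296 stromal cells were too shallow. Cells with at least 3 C1q UMIs were in cycle in 2.92% ± 1.36 of cases and cells with none in 4.20% ± 2.44 (SD, n = 15 pools). The difference of -1.27 points was negative in 11 of 15 pools (exact permutation p = 0.0175, adjusted over 6 sets 0.105). It was -0.18 thinned to 1500 UMIs, with 8 pools higher and 6 lower, and -0.33 without thinning, and passed in neither.

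No set passed the adjustment. The osteoclast set gave 1.72% ± 2.85 against 3.08% ± 1.16 (difference -1.36 in 12 pools, lower in 9, exact permutation p = 0.0586, adjusted 0.176). The resident receptor set gave a difference of -0.90 (16 pools, adjusted exact permutation p = 0.247), the lipid-associated set -1.57 (10 pools, 0.296), the MHC class II set -0.52 (7 pools, 0.750) and the monocyte set -0.02 (6 pools, 0.969). With 6 pools the smallest p the test allows is 0.0312. Primary granule and progenitor sets had too few cells in every pool. Without thinning the differences of the resident, lipid-associated, MHC class II and monocyte sets were positive (2.40, 3.16, 1.85 and 7.13), of which all but that of MHC class II passed (adjusted exact permutation p = 0.0234, 0.0293, 0.0762 and 0.0234), and in unthinned cells the UMI count differs between the cells compared.

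**Figure D5:**
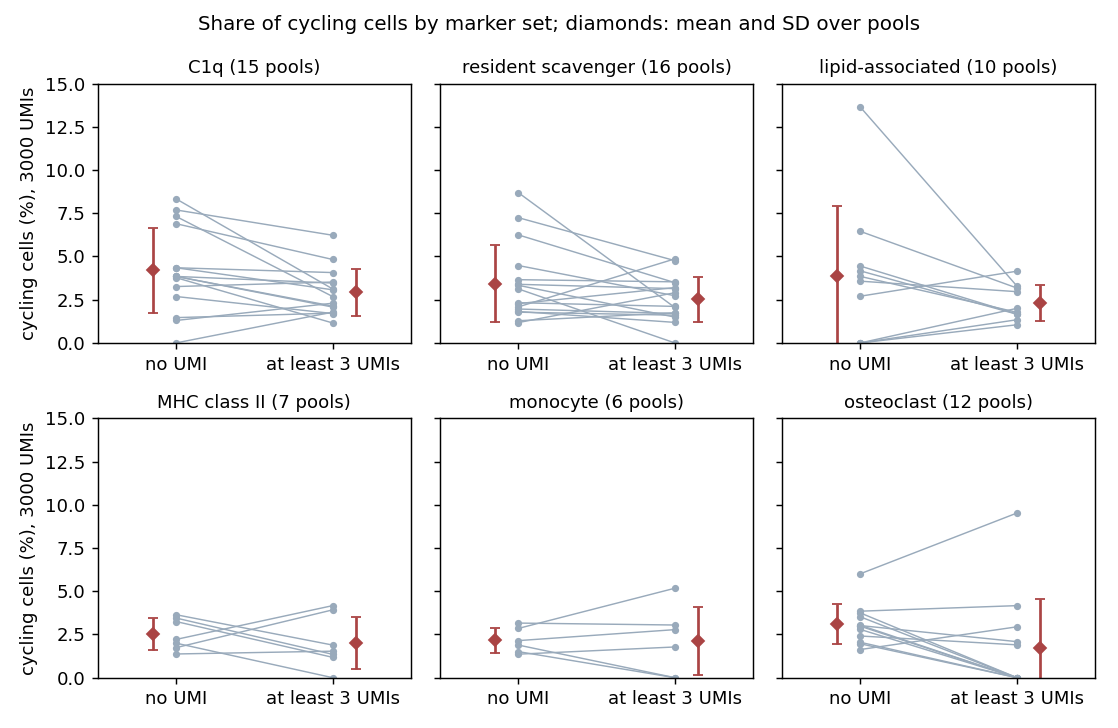
Share of gated cells with at least 4 of the 6 cycle genes (y axis, %) at 3000 UMIs a cell, in cells with no UMI and with at least 3 UMIs of each of 6 marker sets, 1 line per pool. Diamonds and bars give the mean and SD over pools, whose number stands above each panel. For C1q the mean was 4.20% without and 2.92% with the set, and pools overlapped in every panel.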

How the data were processed

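Droplet libraries (10x Genomics Single Cell 3' v2) of 16 pools of BMSC-OBs were sequenced in 2 runs each. Per the labels and the study's methods the authors made UMI counts per gene and called barcode with Cell Ranger 5.0.0 on GRCm38 (mm10), and the deposited counts are from before cells were filtered, doublets removed and cells assigned to animals. The gene annotation release is not given in the sources used here. The members and the gene lists were chosen with earlier results of these data known.

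Counts of the first run were summed per pool and class, for pools with at least 20 cells in each class (at least 5 for the C1q comparison, where a planned minimum of 10 left 1 pool). Genes passing edgeR's filter on low counts were tested with edgeR 4.0.16 (R 4.3.3, TMM scaling, quasi-likelihood, pool as a block), with an interaction term for the C1q and stromal comparisons. Adjusted p-values are Benjamini-Hochberg values over all genes tested, and CPM are per 1000000 summed UMIs. Summed totals were 239122 to 1836790 UMIs in members and 944102 to 7623302 in cells with none of the 6. UMI-matched cells were the unused cells of the same pool nearest in log UMI count, 1 for each member. Cells with C1q shares of at least 10 or under 2 per 10000 UMIs were called C1q-high or C1q-low. Stromal cells had at least 4 Col1a2 UMIs per 10000 and no Tyrobp or Csf1r UMI. High collagen shares were those above the 90th percentile of the pool's non-cycling gated cells. Scrublet scores (scanpy 1.11.5) marked the highest-scoring 0.8% per 1000 barcodes. Shares of cycling cells were compared on cells thinned to 3000 UMIs, by exact two-sided permutation tests over pools (scipy 1.17.1), adjusted over 6 sets. Fits were tested on simulated data, in which the uncentred stromal interaction made more false calls than the centred one and the C1q interaction recovered fewer of the changed genes than the other fits.

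The pool number pairs the classes because they come from the same droplets and mice. Deviations of the 2 myeloid classes from their class means correlated by 0.227 to 0.566 within pools (log2 scale with a pseudocount of 10 CPM), and the median between different pools was -0.0357. The interactions had no block for cells of 1 kind within a pool, so their closer tie was not modelled. Median correlations were 0.411 between the myeloid classes and 0.233 between cycling myeloid and cycling stromal cells. They were 0.436 between the C1q-high classes and 0.218 between cycling C1q-high and cycling C1q-low cells.

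Genes were named by rule: the 12 largest rises and falls among called genes with at least 50 CPM in the higher class and 1 direction in all pools, up to 4 genes per list by adjusted p, the 5 highest and lowest values of an interaction, and up to 6 genes of each cycle list by level. Alternatives were DESeq2 1.42.0, no filter, the second run, other limits on cycle genes, cells, Tyrobp and depth, leaving out called doublets or collagen-rich cells, no block and leaving out each pool. Chosen after seeing the data were the C1q-high restricted cells, the minimum of 5 cells, the centred interaction and the myeloid against stromal share. A gene that the rule would name is not reported here.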

Additional observations from a re-analysis of the deposited data

Results flagged for a closer look

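For 10 genes the difference between cycling and non-cycling cells was itself different in myeloid and stromal cells (edgeR's interaction test). The interaction was -3.13 for Fam111a, -2.51 for Gas2l3, -2.03 for Cenpa, -1.89 for Fabp5 and -1.77 for Ncapg2. It was 2.45 for Phex, 2.46 for Bglap2, 2.86 for Rarres2, 3.33 for Sost and 4.00 for Cfd. All of these but Bglap2 were low in both myeloid classes, so that their values rest on the change in stromal cells. The first 5 kept their sign and passed in every alternative run, and of the others Rarres2, Sost and Cfd did not.

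A pool lay far from the others in the share of cycling cells by lipid-associated transcripts. In pool 11, 3 of 22 cells with no UMI of the set were in cycle at 3000 UMIs (13.6%), and the difference between cells with and without the set was -10.3 points there. Both values belong to the same pool and set. Of 9 groups of pools checked, chance flags about 1 in 20.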

How the results depend on the processing

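For members against cells with none of the 6, the counts of 1750 higher and 1720 lower genes became 825 and 956 against UMI-matched cells, 1095 and 1110 with at least 10 Tyrobp UMIs per 10000, 544 and 478 in C1q-low cells, and 476 and 478 in the C1q-high restricted cells (553 and 592 with pools of at least 10 cells). Fewer cells or pools enter each of these. With no filter on low counts they were 1479 and 2394 of 18971 genes (38.2% of calls higher, against 50.4%). Leaving out 1 pool gave 1592 to 1802 and 1539 to 1724, and no replicate block gave 1465 and 1325. For the C1q interaction the 0 calls became 7 higher and 2 lower with DESeq2, 38 and 24 with no filter, 1 higher with run 2 or without collagen-rich cells, 2 higher without called doublets, and 0 to 2 and 0 to 1 without 1 pool. For the stromal interaction the counts of 1188 higher and 488 lower became 482 and 217 with no replicate block, 585 and 1966 with at least 3 cycle genes, 715 and 284 with at least 5, 491 and 2304 in run 2, 255 and 2036 without called doublets, and 430 higher against UMI-matched cells. Leaving out 1 pool gave 463 to 1178 and 364 to 1731, with the extremes of 463 and 1731 without pool 6. Centred on the median they were 770 and 849, 750 and 879 without pool 6, 932 lower with at least 3 cycle genes, 946 lower in run 2, 541 higher without called doublets and 378 higher against UMI-matched cells.

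Of 2319 values for the 88 genes named from the fits, 2245 kept their direction and call, 62 lost the call, 10 gained it and 2 changed sign, which were Col1a1 at 0.078 and 0.205 in the C1q-high restricted cells with pools of at least 20 and 10 cells. No replicate block lost 10 of these calls, and where it is not mentioned beside a gene it changed none.

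In the shares of cycling cells, the C1q difference of -1.27 points was -1.35 (adjusted p = 0.0367) with a limit of 1 UMI, -0.18 (8 pools higher and 6 lower, 0.633) thinned to 1500 UMIs, -0.33 (0.801) without thinning and -1.49 to -0.99 without 1 pool (-1.49, adjusted p = 0.0220, without pool 7). The resident receptor difference was -1.95 (0.0403) with at least 3 cycle genes, -0.24 (0.769) in run 2, -0.37 (0.460) at 1500 UMIs and 2.40 (0.0234) without thinning. The lipid-associated difference was -3.82 (0.0234) in run 2, -0.79 (0.125) at 1500 UMIs, -0.25 (0.905) without high doublet scores, -0.66 (0.562) without collagen-rich cells and 3.16 (0.0293) without thinning, and that of MHC class II 1.85 (0.0762) without thinning. The osteoclast difference was -1.92 (0.0469) in run 2, -2.13 (0.0201) with a limit of 1 UMI, -0.76 (0.125) at 1500 UMIs and -0.29 (0.801) without thinning. The monocyte difference of -0.02 was 1.39 with at least 3 cycle genes, 0.82 with a limit of 1 UMI and 7.13 (0.0234) without thinning, and 0.28 without pool 7 and 0.35 without pool 9. Without 1 pool the ranges were -1.14 to -0.51 for the resident set, -1.97 to -0.60 for the lipid-associated set, -0.97 to -0.25 for MHC class II, -0.49 to 0.35 for the monocyte set and -1.81 to -1.15 for the osteoclast set. The cause of these changes was not tested. The planned fits of the C1q interaction with at least 10 cells and of C1q-low cells with at least 20 were not run, since 1 pool remained. The rarer members were few: precursor-like cells number 16, and pools 4, 7, 13 and 14 had too few members for the summed comparison.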
